A study of Mus musculus with 8 samples.

Results

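The genes described here are 34 transcripts of the unfolded protein response and the integrated stress response, measured in proximal tubule cells that were grown from mouse kidney as primary cultures. They were taken as every probe, controls aside, whose transcript accession belongs to a gene on a fixed list, and they were 34 of 14476 genes tested. Of these, 19 form the endoplasmic reticulum (ER) group, which holds folding, degradation and sensing proteins and the transcription factor XBP1. The other 15 belong to the response that runs through the transcription factor ATF4. The study asked how GW4064, a synthetic agonist of the bile acid receptor FXR, alters expression in these cells. Tubules were prepared from the kidney cortex of male mice, labelled strain C57/BJ, 6 weeks old, and grown in culture until confluent. In serum-free medium, 4 samples then received the solvent DMSO and 4 received 1 uM GW4064, each for 24 h. The labels name no genetic change in the mice, and they do not tell whether the 4 samples of each treatment were independent cultures or animals.

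The unfolded protein response is the system by which a cell adjusts folding in the ER when unfolded proteins accumulate there. The ER membrane sensors IRE1, PERK and ATF6 raise chaperones, disulfide isomerases and degradation factors, while PERK and its sister kinases phosphorylate the initiation factor eIF2, which slows protein synthesis and favours translation of ATF4. ATF4 then activates genes for amino acid synthesis and transport, redox defence and, under prolonged stress, cell death. Proximal tubule cells make and recycle large amounts of membrane protein, and both arms are known to be active in injured tubules. The arrays measured transcript levels, not the phosphorylation, cleavage or translation steps through which the sensors act.

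Each RNA was hybridised to a one-colour Agilent array. A level below is the log2 processed signal of a gene's brightest retained probe relative to its array's 75th percentile, so that a level of 0 equals that percentile. Levels of different genes are not comparable, because probes differ in brightness for the same amount of RNA. That percentile was a processed signal of 1626 ± 187 in the DMSO group and 1412 ± 207 in the GW4064 group (SD, n = 4 each). There were 2 slides of 4 arrays, with replicates 1 and 2 of both groups on slide 1 and replicates 3 and 4 on slide 2. DMSO samples took the first 2 places of each slide, so place and treatment cannot be told apart. The FXR target Slc51a, a basolateral bile acid transporter subunit, was 120.6-fold higher with GW4064 (log2 fold change 6.91 ± 0.16 SE, n = 4 per group). Nr0b2, another FXR target, exceeded background clearly on 1 of 8 arrays, too few for a test. Of 16 proximal tubule markers, 15 were well above background on all 8 arrays. So were 6 of 6 leukocyte markers with a probe and 6 of 6 fibroblast and pericyte markers. The same held for 5 of 6 endothelial markers and 4 of 7 markers of other nephron segments and podocytes. Detection alone therefore does not tell these cell types apart.

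The promoters of several members carry the short elements through which the response is known to work. The list holds known genes of these pathways, so such matches were likely from the outset. They are given as a description and do not test the list. RefSeq promoter sequences (assembly GRCm38.p6, 250 bases before to 50 after each transcript start) were at hand for 30 of the 34 genes, as 31 promoters. The entries did not cover Manf, Hyou1, Slc7a5 and Cth. Both strands were searched for 4 motifs. The ER stress response element (ERSE), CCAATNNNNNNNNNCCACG, is bound by ATF6 with the factor NF-Y, and occurred in 39 of 32851 promoters of this length (0.119%). It was found in 7 of 17 ER promoters, those of Calr, Canx, Creld2, Dnajc3, Hsp90b1, Hspa5 and Pdia6, and in 0 of 14 ATF4-type promoters. ERSE-II, ATTGGNCCACG, occurred in 12 promoters (0.037%), and these included Dnajb11 and Herpud1. The unfolded protein response element TGACGTGG occurred in 222 promoters (0.676%) and in no member's. The C/EBP-ATF response element (CARE), TGATGNAA, which ATF4 binds, occurred in 1304 promoters (3.97%), including those of Asns, Atf3, Chac1 and Trib3 among the ATF4-type genes and of Herpud1 among the ER genes.

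Sequences of 5 promoters are printed because they carry these elements in genes on either side of the test described below: Calr, Herpud1 and Atf3 passed it, and Hspa5 and Asns, the best known genes of the 2 arms, did not. Each is the 250 bases upstream of the start, 5′ to 3′ on the strand of the gene. Capitals mark the motif matches, and a match on the opposite strand appears as its reverse complement. The Hspa5 window is chr2:34771840-34772089 on the plus strand, with its ERSE from 65 to 47 bases before the start.
Hspa5: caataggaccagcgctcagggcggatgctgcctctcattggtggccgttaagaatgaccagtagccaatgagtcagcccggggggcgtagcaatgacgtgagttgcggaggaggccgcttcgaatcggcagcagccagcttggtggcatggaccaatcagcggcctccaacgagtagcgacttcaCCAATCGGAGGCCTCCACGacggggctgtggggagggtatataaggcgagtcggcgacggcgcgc
The Calr window is chr8:84846932-84847181 on the minus strand, with its ERSE on the opposite strand from 162 to 144 bases before the start.
Calr: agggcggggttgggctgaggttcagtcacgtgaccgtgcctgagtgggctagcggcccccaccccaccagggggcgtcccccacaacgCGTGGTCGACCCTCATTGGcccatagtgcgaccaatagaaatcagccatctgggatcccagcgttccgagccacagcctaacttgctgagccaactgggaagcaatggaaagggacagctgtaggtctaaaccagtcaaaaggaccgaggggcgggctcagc
The Herpud1 window is chr8:94386179-94386428 on the plus strand and holds a CARE, on the opposite strand, from 112 to 105 bases and an ERSE-II from 52 to 42 bases before the start.
Herpud1: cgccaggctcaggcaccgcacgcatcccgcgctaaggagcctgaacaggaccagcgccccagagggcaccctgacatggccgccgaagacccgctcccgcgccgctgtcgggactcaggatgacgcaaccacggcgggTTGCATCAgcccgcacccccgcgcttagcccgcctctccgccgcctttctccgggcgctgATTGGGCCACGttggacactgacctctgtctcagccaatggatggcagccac
The Atf3 window is chr1:191183334-191183583 on the minus strand, with a CARE on the opposite strand from 110 to 103 bases before the start.
Atf3: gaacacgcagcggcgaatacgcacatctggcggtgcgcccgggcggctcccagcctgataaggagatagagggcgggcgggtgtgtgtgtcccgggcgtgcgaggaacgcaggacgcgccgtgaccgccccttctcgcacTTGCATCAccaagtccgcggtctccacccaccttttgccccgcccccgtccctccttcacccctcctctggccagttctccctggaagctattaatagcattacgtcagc
The Asns window is chr6:7693210-7693459 on the minus strand, with its CARE from 23 to 16 bases before the start.
Asns: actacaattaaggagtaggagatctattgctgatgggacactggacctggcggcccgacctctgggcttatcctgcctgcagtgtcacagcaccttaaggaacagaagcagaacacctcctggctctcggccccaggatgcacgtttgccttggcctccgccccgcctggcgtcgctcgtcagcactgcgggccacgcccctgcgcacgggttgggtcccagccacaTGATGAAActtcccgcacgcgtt
A match describes letters in this window and does not show that a factor binds there.

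Of the 34 genes, 8 were higher and 4 were lower with GW4064 at an adjusted p under 0.05 (limma, Benjamini-Hochberg over all genes tested), and 22 did not pass. Genes that rose were the chaperone Calr, the BiP partners Dnajb11 and Hyou1, the sensor Ern1, the regulators Atf3 and Ppp1r15a, the nutrient sensor Sesn2 and the cysteine enzyme Cth. Genes that fell were Herpud1 of the degradation machinery, the serine synthesis enzymes Phgdh and Psat1, and the mTORC1 inhibitor Ddit4. The passing share was 35.3%, beside 20.8% of all genes tested, of which 11.8% were higher and 8.95% were lower. The changes were small: log2 fold changes ran from -0.74 to 0.27, and only Ddit4 passed 1.5-fold. Groups did not overlap for 14 of the 34 genes, beside 26.2% of all genes. The median log2 fold change was 0.08 over the 34 genes and 0.01 over all genes.

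**Figure D1:**
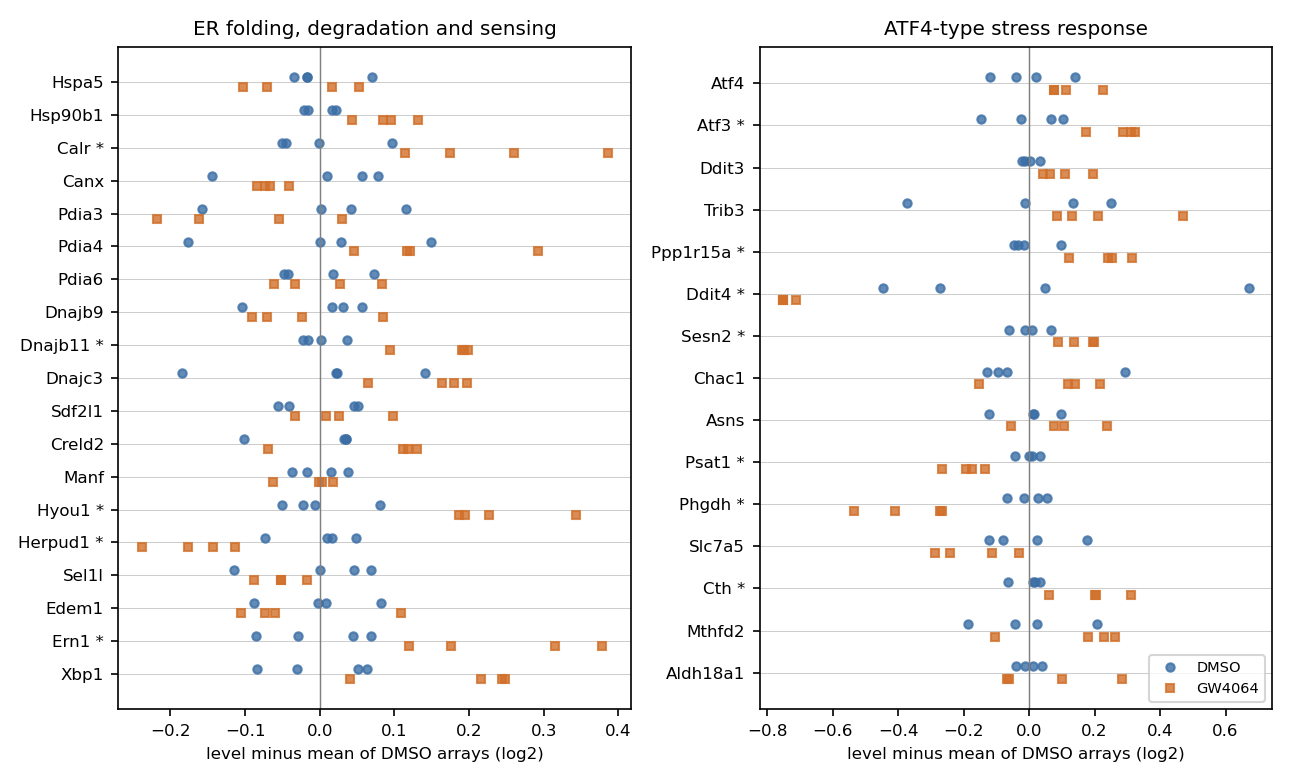
Level of each gene in each sample minus the mean of the 4 DMSO samples (log2, horizontal axis), with ER genes on the left and ATF4-type genes on the right. Circles are DMSO samples, squares are GW4064 samples, and asterisks mark the 12 genes past the test, among which Ddit4 has the widest DMSO spread and the tightest GW4064 values.

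Of the 19 ER genes, 4 were higher, 1 was lower and 14 did not pass (26.3%, a share near the 20.8% of all genes). Their log2 fold changes ran from -0.17 to 0.25, and their median was 0.02. The ATF4-type genes held 4 higher and 3 lower among 15 (46.7%), with a range from -0.74 to 0.27 and a median of 0.10. Groups did not overlap for 6 of 19 ER genes and 8 of 15 ATF4-type genes, beside 26.2% of all genes. Within slides, the ER median was 0.06 on slide 1 and 0.06 on slide 2, and the ATF4-type median was 0.17 and 0.07. No test of the difference between the 2 arms was made, and the counts rest on genes close to the threshold: leaving out any single array gave 2 to 4 ER calls and 3 to 6 ATF4-type calls. The ER count was 2 without DMSO replicate 2 or 4 and 3 without DMSO replicate 3 or GW4064 replicate 1 or 4. The ATF4-type count was 3 without DMSO replicate 2 or GW4064 replicate 1, and 4 without DMSO replicate 4 or GW4064 replicate 2 or 4. Calls over all genes fell in these fits too, from 3006 with every array. They were 2107, 2776 and 2076 without DMSO replicates 2, 3 and 4. Without GW4064 replicates 1, 2 and 4 they were 2116, 2206 and 2827.

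**Figure D2:**
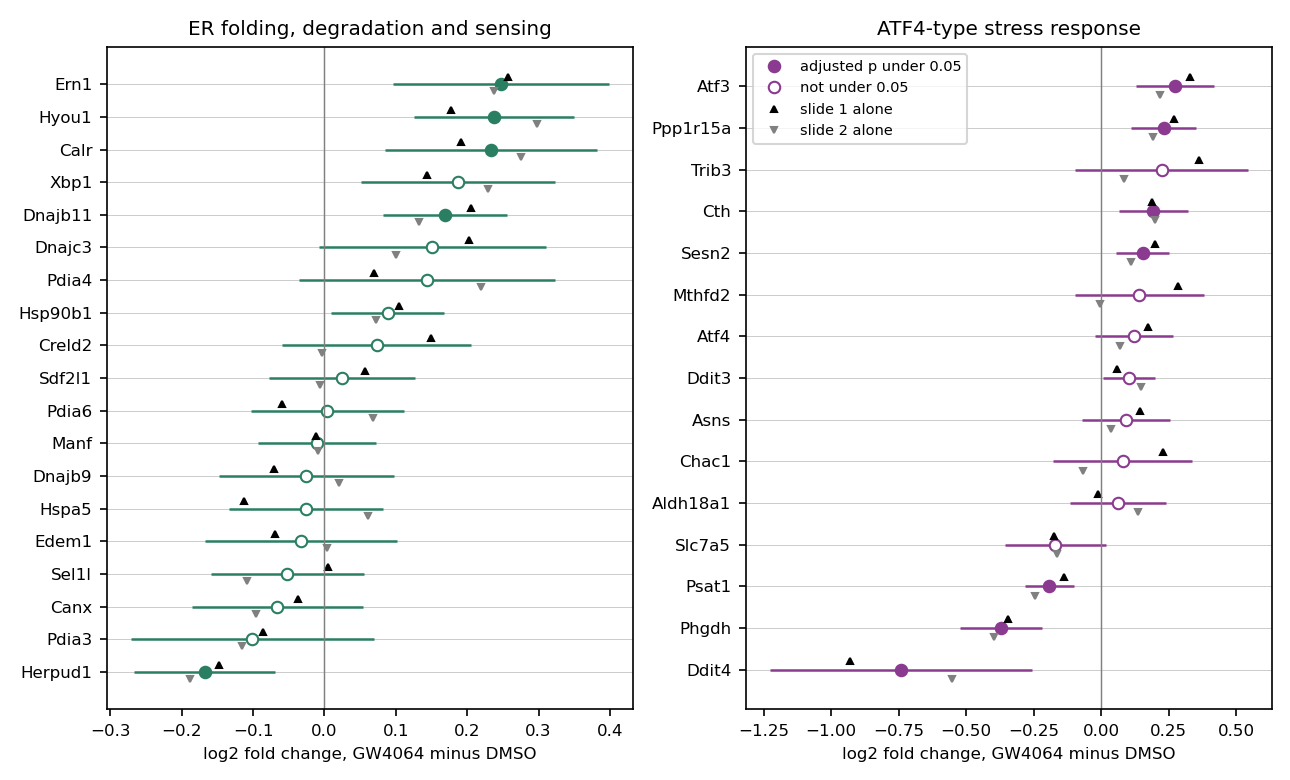
Log2 fold change of each gene, GW4064 minus DMSO, with its 95% confidence interval from the limma fit (n = 4 per group); filled circles passed an adjusted p of 0.05, and triangles give the change within slide 1 (pointing up) and slide 2 (pointing down). All 12 genes that passed, picked on these same values, have the same sign on both slides, as do 10557 of all 14476 genes tested. The ATF4-type genes reach both ends of the scale while Hspa5 and Pdia6 sit at 0.

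Hspa5 encodes BiP, the main ER chaperone and the usual readout of the response. Its level was 5.21, 5.29, 5.21 and 5.19 in DMSO replicates 1 to 4, and 5.12, 5.15, 5.24 and 5.28 in GW4064 replicates 1 to 4. The groups overlapped, with the lowest and next lowest values in GW4064 replicates 1 and 2. The log2 fold change was -0.03 (95% interval -0.13 to 0.08, limma adjusted p = 0.734), -0.11 on slide 1 and 0.06 on slide 2.

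Hsp90b1, the HSP90 of the ER lumen, had levels of 4.87, 4.91, 4.86 and 4.90 with DMSO and 5.02, 4.97, 4.93 and 4.98 with GW4064. Every GW4064 value was above every DMSO value. The difference was nevertheless small, 0.09 ± 0.03 SE, and did not pass across all genes (limma adjusted p = 0.109).

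Calr encodes calreticulin, the soluble lectin chaperone that holds newly made glycoproteins. Its level was 4.13, 3.99, 3.98 and 4.03 with DMSO and 4.21, 4.29, 4.15 and 4.42 with GW4064. All 4 GW4064 values lay above the DMSO values, with the narrowest gap between DMSO replicate 1 and GW4064 replicate 3. Calr rose by 0.23 ± 0.06 SE (log2, n = 4 per group, limma adjusted p = 0.0369), 0.19 on slide 1 and 0.28 on slide 2. The call held without DMSO replicate 1 (limma adjusted p = 0.0367) or GW4064 replicate 3 (0.0272), and missed without any one of the other 6 arrays (0.0557 to 0.0950). It also missed with the slide as a block (limma adjusted p = 0.0536).

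Calr's membrane-bound counterpart Canx had a log2 fold change of -0.07 (95% interval -0.19 to 0.05), and the isomerase Pdia3, which both recruit to glycoproteins, had -0.10 (-0.27 to 0.07). Neither passed the test (limma adjusted p = 0.410 and 0.377). The members of this folding cycle thus gave point estimates of both signs, and only Calr was called.

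The remaining disulfide isomerases were not called. Pdia4 had a log2 fold change of 0.14 (95% interval -0.04 to 0.32, limma adjusted p = 0.234). Pdia6 had 0.00 (-0.10 to 0.11, limma adjusted p = 0.964), with a second probe at the same value of about 0. For both genes the DMSO and GW4064 values overlapped.

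Dnajb11 (ERdj3) is a J-domain protein that hands unfolded clients to BiP. Its level was 2.55, 2.53, 2.54 and 2.59 with DMSO and 2.74, 2.75, 2.65 and 2.75 with GW4064. The groups did not overlap, and GW4064 replicate 3 stood apart as the lowest of its group. Dnajb11 rose by 0.17 ± 0.04 SE (log2, limma adjusted p = 0.0163), 0.20 on slide 1 and 0.13 on slide 2. Leaving out DMSO replicate 2 moved the adjusted p to 0.0509 (limma), and it stayed under the threshold without any other single array. A second Dnajb11 probe, for another transcript, exceeded background clearly on 0 of 8 arrays and was left out.

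Hyou1 (GRP170) is a large chaperone that recharges BiP with ATP. Its level was -3.56, -3.45, -3.54 and -3.58 with DMSO and -3.35, -3.31, -3.34 and -3.19 with GW4064. The groups were apart on both slides, with GW4064 replicate 4 the highest. Hyou1 rose by 0.24 ± 0.05 SE (log2, limma adjusted p = 0.0113), 0.18 on slide 1 and 0.30 on slide 2. It passed the test without any one array (limma adjusted p 0.0143 to 0.0360). Under the planned normexp background correction, described in the last section, its sign changed (-0.36). The Hyou1 probe was the dimmest of those used for the 34 genes, although well above background on every array.

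Other BiP partners did not pass. Dnajc3 (p58IPK), which also restrains PERK, had a log2 fold change of 0.15 (95% interval -0.01 to 0.31, limma adjusted p = 0.165). Dnajb9 (ERdj4), a regulator of IRE1, had -0.03 (-0.15 to 0.10, limma adjusted p = 0.777). Sdf2l1, which works with Dnajb11, had 0.02 (-0.08 to 0.13, limma adjusted p = 0.735).

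Creld2 and Manf are small ER proteins, the latter also secreted, that are commonly used as stress reporters. Creld2 had a log2 fold change of 0.07 (95% interval -0.06 to 0.21, limma adjusted p = 0.413). In each group 1 Creld2 value stood apart below the others, DMSO replicate 1 at 2.97 and GW4064 replicate 4 at 2.998. Manf had -0.01 (-0.09 to 0.07, limma adjusted p = 0.864), with an interval on both sides of 0.

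In the degradation branch, proteins that fail to fold are drawn back to the cytosol by a complex around the ligase HRD1. Herpud1 encodes a membrane subunit of that complex and is normally a strongly stress-responsive gene. Its level was 2.11, 2.20, 2.23 and 2.19 with DMSO and 2.07, 1.94, 2.04 and 2.01 with GW4064. All GW4064 values lay below all DMSO values, although DMSO replicate 1 and GW4064 replicate 1 were close. Herpud1 fell by 0.17 on the log2 scale (SE 0.04, limma adjusted p = 0.0274), with -0.15 on slide 1 and -0.19 on slide 2. The call held without DMSO replicate 1, GW4064 replicate 1 or GW4064 replicate 3 (limma adjusted p 0.0244 to 0.0472) and missed without any one of the other 5 arrays (0.0515 to 0.0746).

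Sel1l, the adaptor of HRD1, had a log2 fold change of -0.05 (95% interval -0.16 to 0.06, limma adjusted p = 0.474). Edem1, a mannosidase-like protein that marks glycoproteins for removal, had -0.03 (-0.17 to 0.10, limma adjusted p = 0.733). Herpud1 was thus the only called gene of the 3, and the other two had intervals on both sides of 0.

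Ern1 encodes IRE1 alpha, the sensor that cuts Xbp1 mRNA. Its level was -2.61, -2.51, -2.54 and -2.67 with DMSO and -2.20, -2.41, -2.27 and -2.46 with GW4064. Values of the 2 groups were close at their edges, DMSO replicate 2 and GW4064 replicate 4, but did not overlap. Ern1 rose by 0.25 ± 0.07 SE (log2, limma adjusted p = 0.0322), 0.26 on slide 1 and 0.24 on slide 2. The call missed without DMSO replicate 1 or 4, or GW4064 replicate 1 or 3 (limma adjusted p 0.0721 to 0.0844). Under the planned normexp background correction, described in the last section, the sign of Ern1 changed (-0.14).

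Xbp1, the transcription factor made after that cut, had levels of 3.95, 4.08, 4.00 and 4.10 with DMSO and 4.25, 4.07, 4.28 and 4.28 with GW4064. GW4064 replicate 2 lay among the DMSO values, and the other three GW4064 samples lay above all of them. The difference of 0.19 ± 0.06 SE (95% interval 0.05 to 0.32) did not pass (limma adjusted p = 0.0585), and passed only when GW4064 replicate 2 was left out (0.0195) among the single arrays. The array value was not split into spliced and unspliced Xbp1, so it does not read IRE1 activity.

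**Figure D3:**
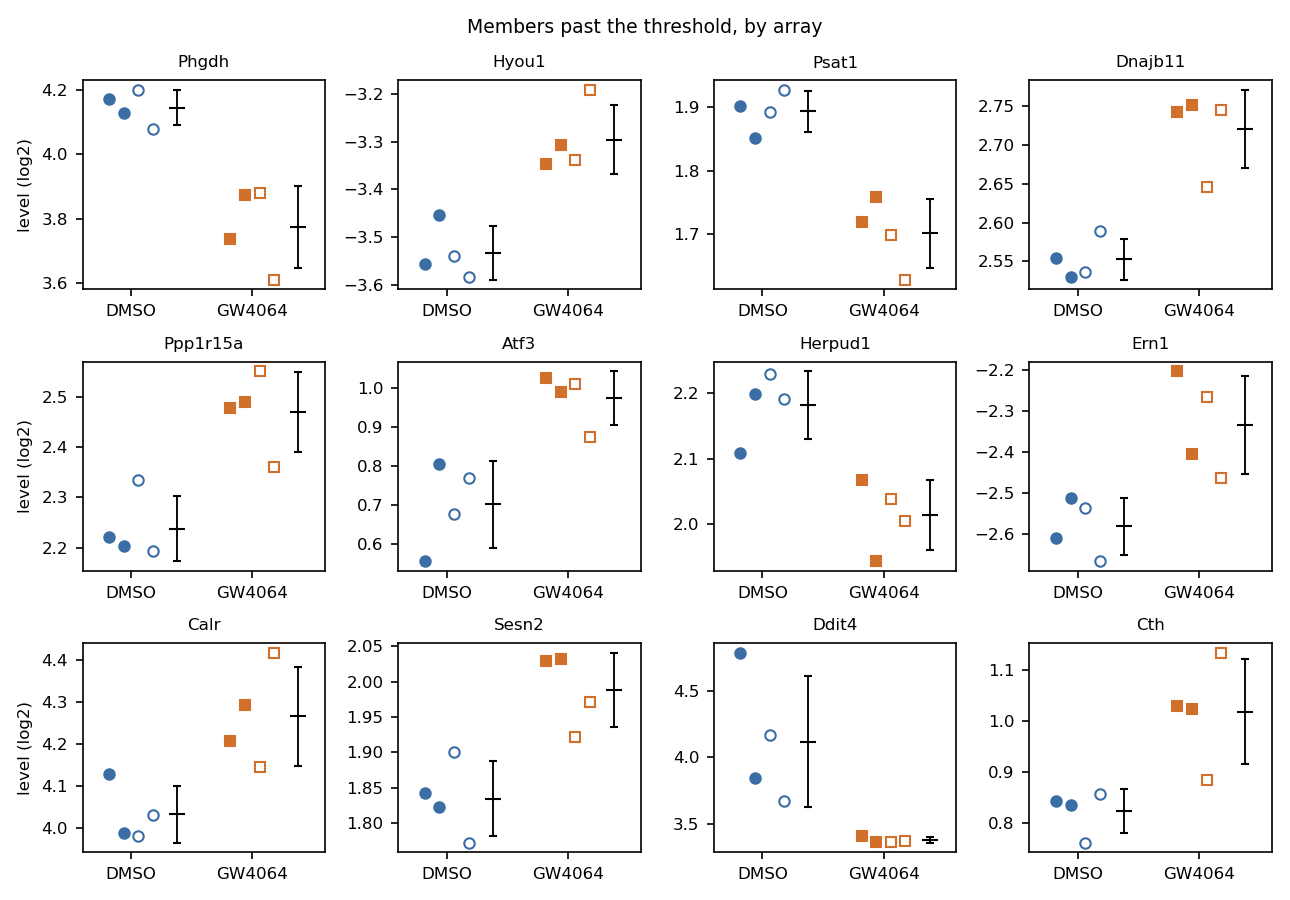
Level (log2 relative to the 75th percentile) in each sample for the 12 genes past the test, in order of p-value; each panel has its own axis. Circles are DMSO and squares GW4064 samples, filled for slide 1 and open for slide 2, with bars for mean ± SD (n = 4). Phgdh and Hyou1 have the smallest p-values. No panel has overlapping groups, but the 12 genes were picked by the test on these same values. Among all genes tested, 26.2% have no overlap.

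The core regulators of the ATF4-type arm all had positive point estimates, as did 7842 of 14476 genes tested, and 2 of 5 passed the test, beside 20.8% of all genes. Atf4 itself, whose control is largely translational, had levels of 4.73, 4.81, 4.99 and 4.87 with DMSO and 4.92, 4.96, 5.08 and 4.93 with GW4064. DMSO replicate 3 lay among the GW4064 values. The difference was 0.12 (95% interval -0.02 to 0.27, limma adjusted p = 0.207), and a second, dimmer probe gave 0.01 ± 0.09 SE.

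Atf3 is a stress-induced repressor and activator downstream of ATF4. Its level was 0.55, 0.80, 0.68 and 0.77 with DMSO and 1.03, 0.99, 1.01 and 0.87 with GW4064. All GW4064 values were the higher ones, with GW4064 replicate 4 nearest to the DMSO samples. Atf3 rose by 0.27 ± 0.06 SE (log2, limma adjusted p = 0.0179), the largest rise among the 34 genes, with 0.33 on slide 1 and 0.22 on slide 2. Without GW4064 replicate 1 the adjusted p was 0.0531 (limma), and without any other single array it was under the threshold.

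Ddit3 encodes CHOP, the factor tied to cell death under prolonged stress. Its level was -0.62, -0.59, -0.64 and -0.63 with DMSO and -0.51, -0.58, -0.55 and -0.42 with GW4064. The groups were apart by a narrow margin, between DMSO replicate 2 and GW4064 replicate 2. The difference of 0.10 ± 0.04 SE did not pass (limma adjusted p = 0.127).

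Trib3, a pseudokinase induced by ATF4 and CHOP that dampens both, was the most variable regulator. Its level was 0.41, 0.77, 1.03 and 0.91 with DMSO and 0.99, 0.91, 1.25 and 0.86 with GW4064. DMSO replicate 1 stood lowest, and the remaining values of the groups were mixed. The difference was 0.22 (95% interval -0.10 to 0.54, limma adjusted p = 0.299), and 0.10 without DMSO replicate 1.

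Ppp1r15a (GADD34) brings a phosphatase to eIF2 and so ends the translational block. Its level was 2.22, 2.20, 2.33 and 2.19 with DMSO and 2.48, 2.49, 2.55 and 2.36 with GW4064. The groups did not overlap, and replicate 3 was the highest and replicate 4 the lowest in both. Ppp1r15a rose by 0.23 ± 0.05 SE (log2, limma adjusted p = 0.0170), 0.27 on slide 1 and 0.19 on slide 2. Leaving out DMSO replicate 2 or 4 moved its adjusted p just past the threshold (limma, 0.0513 and 0.0511).

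Among the stress effectors, Ddit4 (REDD1) inhibits the growth kinase mTORC1 and also answers to hypoxia and glucocorticoids. It had levels of 4.79, 3.84, 4.17 and 3.67 with DMSO and 3.41, 3.36, 3.36 and 3.37 with GW4064. The DMSO samples were widely spread (SD 0.49) and the GW4064 samples nearly identical (SD 0.02), and every DMSO value was higher. Ddit4 fell by 0.74 on the log2 scale (SE 0.21, 1.67-fold, limma adjusted p = 0.0412), with -0.93 on slide 1 and -0.55 on slide 2, which is the largest change of the 34 genes. Without DMSO replicate 1 the difference was -0.52 (limma adjusted p = 0.0177), and without DMSO replicate 4 it was -0.89 (0.0239). Without any one of the other 6 arrays the adjusted p was 0.0502 to 0.0899 (limma).

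Sesn2, a leucine sensor that also restrains mTORC1, had levels of 1.84, 1.82, 1.90 and 1.77 with DMSO and 2.03, 2.03, 1.92 and 1.97 with GW4064. The GW4064 samples were all higher, though GW4064 replicate 3 exceeded DMSO replicate 3 only slightly. Sesn2 rose by 0.15 ± 0.04 SE (log2, limma adjusted p = 0.0379), 0.20 on slide 1 and 0.11 on slide 2. The call held without either array numbered 3 (limma adjusted p = 0.0348 and 0.0344) and missed without any one of the other 6 (0.0555 to 0.101). Ddit4 and Sesn2, which both act against mTORC1, therefore moved in opposite directions.

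Chac1 encodes an enzyme that breaks down glutathione and is among the most ATF4-dependent genes. Its level was 1.11, 1.17, 1.53 and 1.14 with DMSO and 1.35, 1.37, 1.45 and 1.08 with GW4064. DMSO replicate 3 was the highest of all 8 samples and GW4064 replicate 4 the lowest. The difference was 0.08 (95% interval -0.18 to 0.34, limma adjusted p = 0.655), and 0.18 without DMSO replicate 3.

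The amino acid genes went both ways. Phgdh catalyses the entry step of serine synthesis from glycolysis. Its level was 4.17, 4.13, 4.20 and 4.08 with DMSO and 3.74, 3.87, 3.88 and 3.61 with GW4064. The groups were far apart relative to their spread, and replicate 3 was the highest and replicate 4 the lowest in each. Phgdh fell by 0.37 on the log2 scale (SE 0.07, limma adjusted p = 0.0059), with -0.35 on slide 1 and -0.40 on slide 2. A second probe gave -0.40, and the call held without any one array (adjusted p 0.0073 to 0.0210).

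Psat1 catalyses the step that follows. Its level was 1.90, 1.85, 1.89 and 1.93 with DMSO and 1.72, 1.76, 1.70 and 1.63 with GW4064. No GW4064 value reached the DMSO values. Psat1 fell by 0.19 on the log2 scale (SE 0.04, limma adjusted p = 0.0116), with -0.14 on slide 1 and -0.25 on slide 2. The second probe gave -0.16, and the call held without any one array (adjusted p 0.0169 to 0.0377). Phgdh and Psat1 thus both fell, while Atf3 and Ppp1r15a of the same arm rose.

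Cth (cystathionine gamma-lyase), which makes cysteine, had levels of 0.84, 0.83, 0.76 and 0.86 with DMSO and 1.03, 1.02, 0.88 and 1.13 with GW4064. Replicate 3 was the lowest of each group, and GW4064 replicate 3 was only just above DMSO replicate 4. Cth rose by 0.19 ± 0.06 SE (log2, limma adjusted p = 0.0419), 0.19 on slide 1 and 0.20 on slide 2, and a second probe gave 0.20. The call held without GW4064 replicate 3 (limma adjusted p = 0.0140) and missed without any one of the other 7 arrays (0.0711 to 0.0943). It also missed with the slide as a block (limma adjusted p = 0.0575).

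Asns, asparagine synthetase and a classical ATF4 target, had levels of 3.68, 3.82, 3.90 and 3.82 with DMSO and 3.88, 3.91, 4.04 and 3.75 with GW4064. The groups overlapped, with GW4064 replicate 4 below 3 of the DMSO samples. The difference was 0.09 (95% interval -0.07 to 0.25, limma adjusted p = 0.404).

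The last 3 amino acid genes were not called. Slc7a5, the large neutral amino acid transporter LAT1, had a log2 fold change of -0.17 (95% interval -0.36 to 0.02, limma adjusted p = 0.183), but its 2 probes differed, the second giving 0.03. Mthfd2, a mitochondrial folate enzyme, had 0.14 (-0.10 to 0.38, limma adjusted p = 0.375). Aldh18a1, which opens proline synthesis, had 0.06 (-0.11 to 0.24, limma adjusted p = 0.604).

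**Figure D4:**
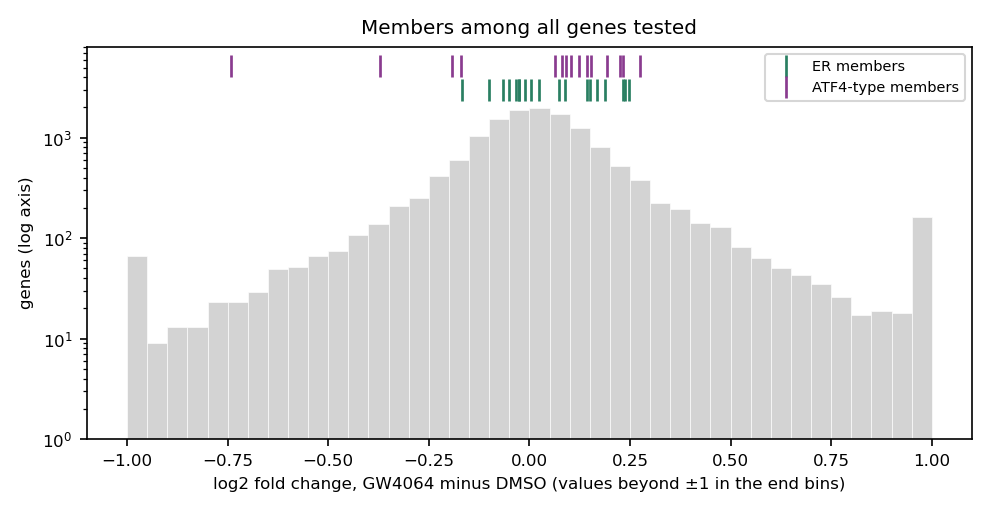
Number of genes (log axis) by log2 fold change, GW4064 minus DMSO, for all 14476 genes tested (grey bars; the end bars hold values beyond ±1), with a tick for each of 19 ER genes and 15 ATF4-type genes. All ticks but that of Ddit4 at -0.74 lie between -0.37 and 0.27, inside the bulk of the distribution.

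Within the groups, certain samples were often the highest or lowest. Replicate 3 was the highest sample of the DMSO group for 9 of 15 ATF4-type genes, beside 25% of all genes. It was the highest of the GW4064 group for 8 (28% of all genes). It was the highest of both groups for 8 (53.3%, beside 10.5% of all genes). These 8 were Atf4, Trib3, Ppp1r15a, Chac1, Asns, Phgdh, Slc7a5 and Mthfd2. Among the 19 ER genes, replicate 3 was the highest in both groups for 0. DMSO replicate 2 was the highest of its group for 10 (24.3% of all genes), and GW4064 replicate 4 for 9 (26.5% of all genes). GW4064 replicate 4 was the lowest of its group for 8 of the 15 ATF4-type genes, and for 4854 of all 14476 genes. The median deviation of the 15 genes from their group mean was 0.07 in DMSO replicate 3, 0.08 in GW4064 replicate 3 and -0.07 in GW4064 replicate 4 (log2). The 2 arrays numbered 3 lay on slide 2, and over all genes their deviations had a correlation of 0.19, given as a description. Differently numbered arrays reached values of the same size. DMSO replicate 1 had 0.20 with GW4064 replicate 2 and -0.20 with GW4064 replicate 3. Without both arrays numbered 3, 4 ATF4-type genes (3 higher, 1 lower) and 2 ER genes (2 higher, 0 lower) passed the test. That fit called 2298 of all genes, beside 3006 with every array. This pattern was seen in the data and was not tested.

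**Figure D5:**
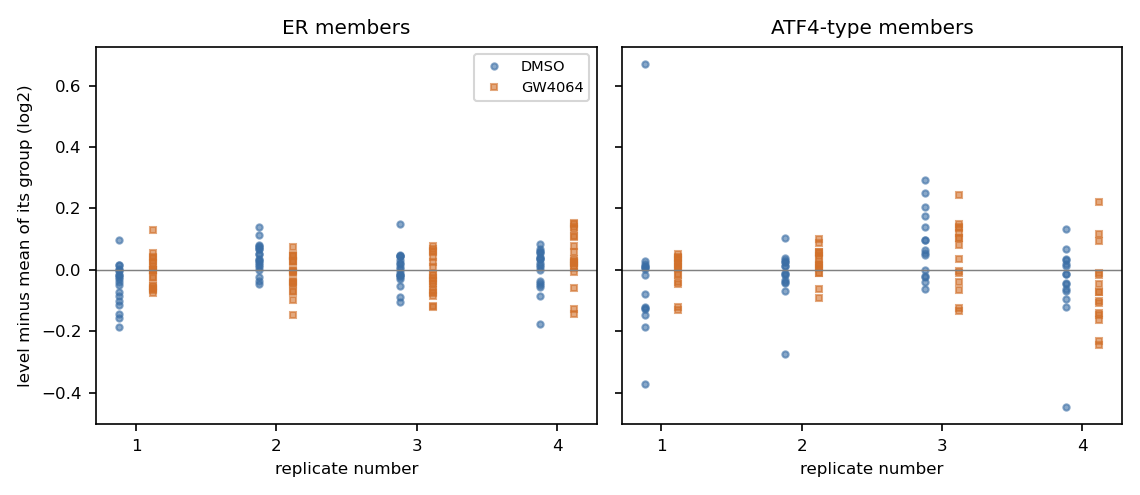
Level of each gene in each sample minus the mean of its group (log2), by replicate number, for ER genes (left) and ATF4-type genes (right). Most ATF4-type points of replicate 3 lie above 0 in both groups (10 of 15 with DMSO, 9 of 15 with GW4064), and most of GW4064 replicate 4 lie below it; replicate numbers have no order.

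The promoter elements are set beside the calls here as a description, since the numbers are small and 20.8% of all genes were called. Of the 7 ER genes with an ERSE, Calr passed the test and Canx, Creld2, Dnajc3, Hsp90b1, Hspa5 and Pdia6 did not. The carriers of ERSE-II went opposite ways, Dnajb11 rising by 0.17 and Herpud1 falling by 0.17 on the log2 scale. Of the 4 ATF4-type genes with a CARE, Atf3 passed, and Asns, Chac1 and Trib3 did not. The called genes Ern1, Ppp1r15a, Sesn2, Ddit4, Phgdh and Psat1 had none of the 4 motifs in this window, and the called genes Hyou1 and Cth had no entry.

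A wider list of 122 genes, set by their known place in the same pathways, gave 116 tested genes, of which 15 were higher, 8 were lower and 93 did not pass (19.8%, beside 20.8% of all genes). Among 12 other sensors, proteases and factors, 3 were higher and 0 lower: the ATF6-related factors Creb3l1 (0.38 ± 0.06 SE, limma adjusted p = 0.0030) and Creb3l2 (0.21 ± 0.05, 0.0137) and the epithelial IRE1 isoform Ern2 (0.37 ± 0.10, 0.0322). The Ern2 probe was dim, with mean levels of -5.68 with DMSO and -5.30 with GW4064, although well above background on every array. The sensors Atf6 and Eif2ak3 (PERK) did not pass (limma adjusted p = 0.679 and 0.924). Among 26 other folding enzymes, 2 were higher and 2 lower. The isomerase Pdia5 rose by 0.57 ± 0.05 SE (limma adjusted p = 1.23e-04), from 0.15 to 0.21 across DMSO samples to 0.67 to 0.86 with GW4064, a larger change than that of any ER gene above. Txndc11 rose by 0.15, and the prolyl isomerases Fkbp7 and Fkbp14 fell by 0.24 each on the log2 scale. Among 22 other degradation genes, 3 were higher and 0 lower, among them Selenos (0.21) and the conjugating enzyme Ube2g2 (0.19).

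In the ATF4-type pathways, 1 of 12 kinases and eIF2 factors passed (8.33%, beside 20.8% of all genes). It was Eif2b4 of the eIF2 exchange factor (0.29 ± 0.04 SE, limma adjusted p = 0.0019). Of 17 other factors and effectors, 3 were higher and 1 was lower (23.5%, a share near that of all genes). The hormone Fgf21 rose by 1.46 ± 0.15 SE (limma adjusted p = 3.12e-04) and the glycoprotein hormone Stc2 by 0.84 ± 0.08 (2.01e-04), both with no overlap between groups. The Fgf21 probe was dim, with mean levels of -4.74 with DMSO and -3.28 with GW4064, although well above background on every array. The autophagy receptor Sqstm1 rose by 0.23, and the lipoprotein receptor Vldlr fell by 0.39 on the log2 scale. These genes have regulators besides ATF4, and Fgf21 was here the most changed gene of the wider list.

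Of 15 other amino acid genes, 2 were higher and 4 lower (40%, beside 20.8% of all genes). The transaminase Gpt2 rose by 0.38 ± 0.06 SE (limma adjusted p = 0.0043) and the folate enzyme Shmt2 by 0.15. The branched-chain transaminase Bcat1 fell by 0.62 on the log2 scale (SE 0.06, limma adjusted p = 1.90e-04), Cbs, which acts just before Cth, fell by 0.33, and the transaminase Got1 fell by 0.22. Of 12 tRNA synthetases and related genes, Tars rose by 0.27 and Eprs fell by 0.33 on the log2 scale, and 10 did not pass (16.7% called). The last enzyme of serine synthesis, Psph, did not pass (limma adjusted p = 0.100).

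Some markers of cell identity moved with treatment as well. The counts below stand beside 11.8% higher and 8.95% lower among all genes tested, and most of the lists hold only 5 or 6 tested genes. Of 15 tested proximal tubule markers, 11 were higher and 0 lower with GW4064. The summed signal of this list relative to the 75th percentile was 73.6 to 89.0 with DMSO and 115 to 133 with GW4064. Of 6 tested leukocyte markers, 3 were higher and 0 lower (summed signal 16.5 to 17.8 against 21.0 to 23.8). Of 6 fibroblast and pericyte markers, 3 were higher and 0 lower (30.1 to 39.3 against 39.4 to 45.9), and of 5 tested endothelial markers, 2 were higher and 0 lower (4.89 to 5.82 against 5.43 to 6.22), with Tek well above background on no array. Of 5 tested markers of other nephron segments and podocytes, 0 were higher and 2 lower (4.71 to 6.22 against 5.03 to 6.59), with Calb1 well above background on no array. Their part in the results above was not tested. In such bulk samples, a change in the number of cells of a type and a change in RNA per cell cannot be told apart.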

How the data were processed

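Total RNA of 8 samples was labelled with Cy3 and hybridised to Agilent arrays. For each array the authors deposited spot intensity from which, per the file headers, the scanner software Feature Extraction 10.7.3.1 had subtracted background. Feature Extraction 10.7 and limma are the tools in the submitters' processing notes. The authors also deposited a table of log2 values, with scale and centring unstated, used only as an alternative. The headers name build mm9, so no coordinates come from the arrays.

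Control spots (1377 of 44397) and outlier spots (98 to 174 an array) were left out, replicate spots were averaged, and the array's 75th percentile over 39429 probes was subtracted on the log2 scale. Symbols came from RefSeq accessions (69.1% of probes matched). Probes had to be well above background on at least 4 of 8 arrays, and the brightest of a gene was used. All 34 genes passed, on all 8 arrays. Groups were compared with limma 3.58.1 (lmFit and eBayes, R 4.3.3, Benjamini-Hochberg over all genes, threshold 0.05, no covariate), after a check on simulated data. Errors are SE of the fit.

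The 34 genes, the wider lists and the tests were chosen with earlier results of these data known. Named are all 34 genes, up to 3 genes past the threshold with the smallest p in each direction in each of 7 wider lists, and the FXR targets Slc51a and Nr0b2; Atf6, Eif2ak3 and Psph were named after their values were seen. For 1 gene under this rule no value is reported here. Since independent cultures are not stated, p-values reflect the spread between these samples alone, possibly a technical one, and 4 arrays a group limit the precision. Alternatives covered background correction, normalization, filters, probe choice, blocks, weights, the deposited table and each array left out. Planned on mean spot signals, the normexp correction was run on the median signals that the files hold. Deviations of same-numbered samples had correlations of -0.13, -0.03, 0.19 and -0.02 over genes, and those of differently numbered samples ran from -0.20 to 0.20. The numbers were therefore not taken as pairs.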

Additional observations from a re-analysis of the deposited data

Results flagged for a closer look

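In 70 groups of 4 samples examined (the 34 genes and the 75th percentile, within each treatment), 6 held a sample whose gap to its nearest neighbour took more of the group's range than Dixon's 95% critical value (8.57% of groups), where chance gives about 1 in 20 groups. For Dnajb11, GW4064 replicate 3 was at 2.65 while the other GW4064 samples were at 2.74 to 2.75, still above the DMSO samples. For Creld2, DMSO replicate 1 was at 2.97, with a gap to the next sample of 0.978 of the range, and GW4064 replicate 4 was at 2.998, with a gap of 0.908 of the range. For Xbp1, GW4064 replicate 2 was at 4.07 against 4.25 to 4.28. Xbp1 passed the test without this sample, and also with it under a trended robust variance prior. For Ddit4, GW4064 replicate 1 was at 3.41 against 3.36 to 3.37, a gap far smaller than the spread of the DMSO group. For Chac1, DMSO replicate 3 was at 1.53 against 1.11 to 1.17.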

How the results depend on the processing

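Over 24 alternative settings, the count of all genes called, 3006, stayed within 1.5 times in 21, and the ER and ATF4-type counts, 5 and 7, in 11 and 12. Leaving out each array gave 2076 to 2827 genes, 2 to 4 ER genes and 3 to 6 ATF4-type genes. ER and ATF4-type calls were 0 and 0 with normexp background correction (119 genes called), within slide 1 (966) and within slide 2 (220). They were 1 and 5 with median centring (2292 genes called) and 2 and 4 with no filter on dim probes (2167 of 20632). The next settings were chosen after seeing the data. Normexp after outlying spot backgrounds were replaced gave 3 and 3 (2157 genes called). The fit without both arrays numbered 3 gave 2 and 4 (2298). In the planned normexp correction, 6 spots of DMSO replicate 3 had local backgrounds far above their signal, and Hyou1 (-0.36) and Ern1 (-0.14) changed sign there; the cause was not tested. The fits within a slide hold 2 samples a group. Of the 12 called genes, Phgdh passed in 20 of 23 settings, Hyou1 in 19, Dnajb11 in 18, Atf3, Ppp1r15a and Psat1 in 17, Ern1 in 13, Herpud1 and Ddit4 in 11, Calr and Sesn2 in 8 and Cth in 7; Xbp1 passed in 2 and Slc7a5 in 1.

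Although the numbers were not shown to pair the samples, a fit with the replicate number as a block called 2322 genes, 3 ER genes (3 higher, 0 lower) and 4 ATF4-type genes (2 higher, 2 lower). A block for slide, which splits the arrays as the scan does, called 2856, 4 and 6.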
